A study of Mus musculus with 12 samples.

Results

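Transcript levels of 10 genes that mark intestinal stem cells or act in Wnt signalling were followed across the 4 culture conditions: Lgr5, Ascl2, Axin2, Sox9, Ephb2, Ephb3, Olfm4, Smoc2, Rnf43 and Znrf3. They were taken by symbol from a deposited table of read counts with 35869 gene symbols, and all 10 were found. Of these, 9 had enough counts to be tested, and Olfm4 did not. The table covers polyadenylated RNA from colonoids, cultures of colon epithelium raised in Matrigel from isolated C57BL/6 mouse crypts. All groups were grown in medium with 50 ng/mL EGF and 20% L-WRN conditioned medium, which comes from cells that secrete Wnt3a, R-spondin 3 and noggin, so that Wnt ligand was supplied from outside in the controls as well. The unstimulated group received no cytokine, the IL-22 group 1 ng/mL of mouse IL-22, the IL-1b group 100 ng/mL of mouse IL-1b, and the fourth group both at these doses, each for 12 h with 3 libraries. Whether the replicates were separate mice or cultures is not in the labels, so the p-values measure the spread between these libraries, which may be technical.

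Wnt proteins bind Frizzled and LRP receptors at the crypt base and keep beta-catenin from being degraded, and beta-catenin then switches on target genes together with TCF factors. R-spondins bind LGR receptors and remove the ubiquitin ligases RNF43 and ZNRF3, which otherwise take Frizzled receptors off the cell surface. Lgr5, Ascl2, Axin2, Rnf43, Znrf3, Ephb2, Ephb3 and Sox9 are themselves known Wnt targets in the intestine, and several of them form feedback loops that damp the signal. Lymphoid cells release IL-22, which signals to epithelium through STAT3, whereas IL-1b drives inflammatory responses through NF-kB.

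Library totals lay between 4703902 and 5804033 counts, and 13987 genes were tested. In a single library 3 counts corresponded to 0.497 to 0.663 CPM, the unit used here for counts relative to the scaled library total. The 11 epithelial markers, led by Hnf4a and Cdh1, summed to between 3101 and 3893 CPM in every library. By group the sums were 3300 to 3477 CPM in unstimulated, 3101 to 3382 in IL-1b, 3423 to 3893 in IL-22 and 3605 to 3741 in doubly treated cultures. Averaged over cultures without and with IL-1b, 8 of the 11 rose with IL-22 by the test and 0 fell, where 19.9% of all genes rose and 19.9% fell. Defining stromal genes were at or near 0, with Lum at 0 in all 12 libraries and Dcn and Col3a1 at 0 in 11. The summed 11 fibroblast and smooth muscle markers, mostly Pdgfrb and Tagln, were nevertheless lower with IL-22 (34.8 to 43.8 CPM) and with both cytokines (28.2 to 33.8) than in unstimulated (47.1 to 63.3) or IL-1b cultures (54.4 to 63.8). The 6 endothelial markers, mostly Pecam1 and Vwf, summed to 7.94 to 10.5 CPM in unstimulated and 8.82 to 11.7 in IL-1b cultures, against 2.87 to 3.20 with IL-22 and 1.93 to 5.67 with both, while Cdh5 and Kdr were at 0 in 11 libraries. The 10 immune markers summed to 6.35 to 8.0 CPM without cytokine, 12.4 to 25 with IL-22, 14.3 to 22 with both and 18.2 to 62.1 with IL-1b, the highest value being IL-1b replicate 1. By mean level this sum was mostly Cd68, Laptm5, Itgam and Ptprc. Cd68 had 12 to 70 counts in a library and Itgam 5 to 30, whereas Ptprc ranged from 0 to 104 and Laptm5 from 1 to 130. The T cell genes Cd3e and Cd3g ranged from 0 to 19 and from 0 to 26. The part of these markers in the results was not tested.

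With IL-22 alone, the crypt-position receptors Ephb2 and Ephb3 rose and the transcription factor Sox9 fell, Sox9 losing its call in 2 of 20 alternative settings. Ascl2, on 11 summed counts against 32, was called lower too, but in only 5 of 19 alternative settings. With both cytokines, Ephb2 rose, and Sox9, Axin2, Znrf3 and Smoc2 fell. IL-1b alone changed none of the 9 tested genes by the test, which only 0.0715% of all tested genes passed in that comparison. The plot of levels by library shows all 10 genes. Where groups are said below not to overlap, the share of all tested genes that separate likewise was not counted.

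**Figure D1:**
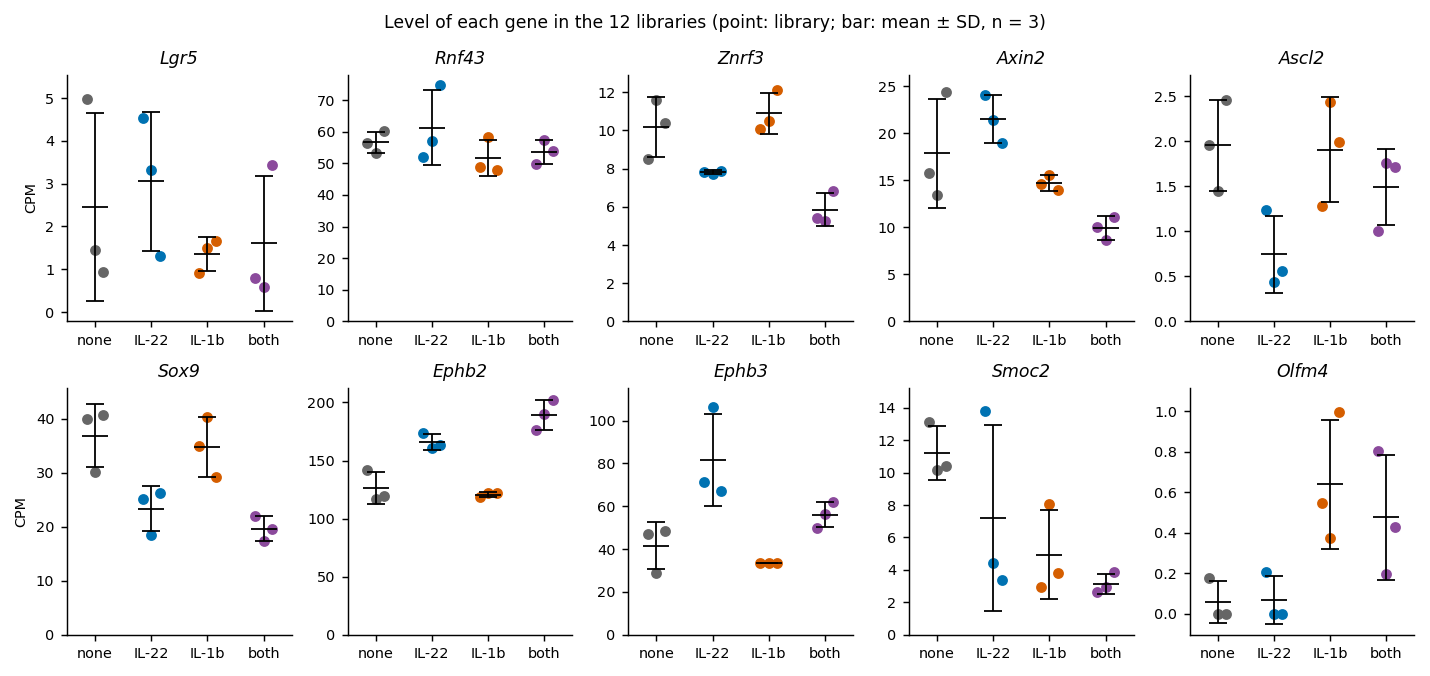
Level of each of the 10 genes in CPM (vertical axes, different in each panel) in unstimulated (none), IL-22, IL-1b and doubly treated (both) cultures. Points are libraries, and bars are the mean ± SD of 3 libraries. In the panels of Ephb2 and Ephb3 all 6 libraries with IL-22 lie above the 6 without, and in those of Sox9 and Znrf3 they lie below. How many of all tested genes separate in this way was not counted.

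The stretches of genome just before the start of 3 of these genes are shown because Ephb2 and Ephb3 rose with IL-22 and Axin2 fell with both cytokines. The sequences are from RefSeq on GRCm38.p6, read 5′ to 3′ on the gene's strand, and capitals mark a GC box (GGGCGG or its reverse complement). Ephb2 is shown over chr4:136836013-136836262 (minus strand), Ephb3 over chr16:21204545-21204754 (plus strand) and Axin2 over chr11:108920099-108920348 (plus strand).
Ephb2: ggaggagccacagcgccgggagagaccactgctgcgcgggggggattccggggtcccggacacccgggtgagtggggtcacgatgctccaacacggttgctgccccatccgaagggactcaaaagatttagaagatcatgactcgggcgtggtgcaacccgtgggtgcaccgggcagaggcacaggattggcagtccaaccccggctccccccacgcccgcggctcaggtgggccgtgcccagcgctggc
Ephb3: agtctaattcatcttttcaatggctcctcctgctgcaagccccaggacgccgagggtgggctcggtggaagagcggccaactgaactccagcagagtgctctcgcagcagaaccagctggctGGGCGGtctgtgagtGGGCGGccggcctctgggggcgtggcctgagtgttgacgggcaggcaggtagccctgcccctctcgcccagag
Axin2: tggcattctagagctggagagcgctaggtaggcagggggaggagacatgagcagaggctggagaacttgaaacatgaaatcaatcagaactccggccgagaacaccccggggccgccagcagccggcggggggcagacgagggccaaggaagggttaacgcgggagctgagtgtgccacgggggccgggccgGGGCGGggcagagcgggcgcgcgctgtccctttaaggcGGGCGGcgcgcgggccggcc
Ephb3 and Axin2 each hold 2 GC boxes in the 250 bases before the RefSeq start, and Ephb2 holds 0. Over these 250 bases the GC content was 68.4% for Ephb2, 65.6% for Ephb3 and 69.2% for Axin2, against a median of 52.4% over 32851 promoters. CpG pairs numbered 20, 16 and 24 in the same order, against a median of 6. Promoters of 6 of the 10 genes were in the RefSeq table, 7 promoters in all. Of these 6 genes 3 held a GC box, and 32.7% of all promoters did, a share counted per promoter and not per gene. The windows of Olfm4 and Rnf43 lie inside the gene as placed by GENCODE and not before its start. The TCF/LEF motif, searched on both strands as CAAAG preceded by AA, AT, TA or TT, was in the window of 0 of the 6 genes and of 14.8% of all promoters. The STAT motif TTCNNNGAA was in 0 of the 6 and in 7.02% of all promoters.

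The genes covered a wide range of levels. Per kilobase of merged exons, which allows genes to be compared, the mean level over the 12 libraries was 11.9 CPM per kb for Ephb2, 8.51 for Rnf43, 8.01 for Ephb3 and 6.94 for Sox9. Axin2 followed at 2.91 CPM per kb, then Znrf3 at 1.10, Smoc2 at 0.953 and Ascl2 at 0.939. Lgr5, the receptor that defines these stem cells, stood at 0.206 CPM per kb, and Olfm4 at 0.105. Every pair of neighbours in this order overlapped over the 12 libraries except Axin2 and Znrf3. Znrf3, Ascl2, Smoc2, Axin2, Lgr5 and Olfm4 thus rest on few counts, down to 27 in a library for Znrf3 and 44 for Axin2.

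**Figure D2:**
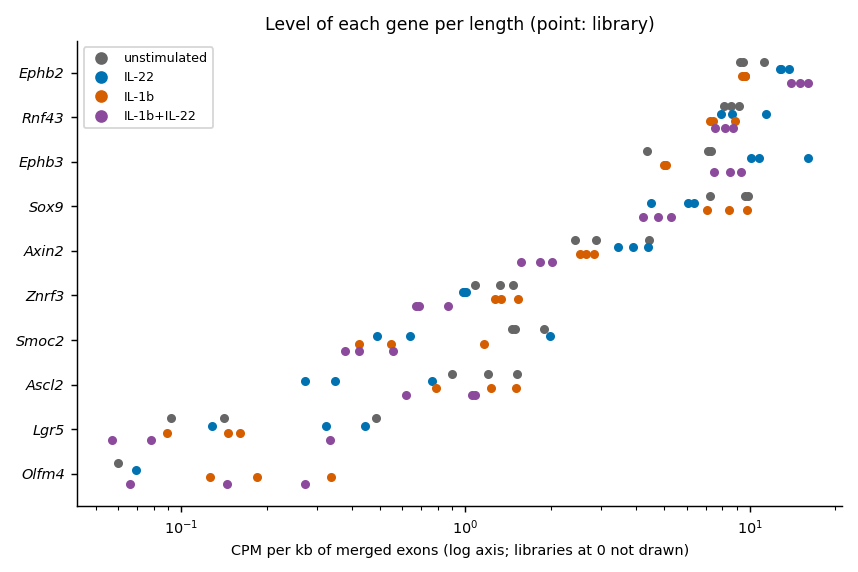
Level of the 10 genes in CPM per kb of merged exons (log axis), with 1 point per library coloured by group and libraries at 0 left out. Ephb2, Rnf43, Ephb3 and Sox9 lie highest, with means from 6.94 to 11.9 CPM per kb, and Lgr5 and Olfm4 lowest.

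Lgr5 encodes the R-spondin receptor that marks cycling stem cells at the crypt base (chromosome 10, 115450311 to 115587780, minus strand, mm10). Its level was 4.98, 1.45 and 0.946 CPM in the unstimulated libraries, 4.53, 3.32 and 1.32 with IL-22, 0.915, 1.5 and 1.66 with IL-1b, and 0.805, 0.587 and 3.42 with both. Each value rests on 3 to 28 counts, and all 4 groups overlapped. The log2 fold change against unstimulated was 0.28 with IL-22 (95% interval -1.06 to 1.61), -0.85 with IL-1b (-2.37 to 0.67) and -0.65 with both (-2.17 to 0.86), and none passed the test. The negative values rest on unstimulated replicate 1: without it IL-1b gave 0.19, both cytokines 0.38 and IL-22 1.31 (edgeR adjusted p = 0.996, 0.758 and 0.208), so no direction is read for Lgr5. From counting error alone, the ratio of summed counts of IL-1b to unstimulated was 0.548 (exact 95% interval 0.314 to 0.935), an interval narrower than that over the libraries. In bulk RNA of this kind, fewer cells of a type and less RNA per cell cannot be told apart, for Lgr5 and for every gene below.

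Rnf43 and Znrf3 encode the transmembrane ubiquitin ligases that clear Frizzled from the surface, and their values are given in turn. Rnf43 (chromosome 11, 87662722 to 87735539, plus strand) had 56.3, 53.3 and 60.2 CPM in unstimulated libraries, 52.1, 57.0 and 74.7 with IL-22, 48.9, 58.4 and 47.8 with IL-1b and 49.7, 57.3 and 53.9 with both. The 4 groups of Rnf43 overlapped, and no comparison passed the test. Its log2 fold change was 0.12 with IL-22 (95% interval -0.14 to 0.38), -0.13 with IL-1b (-0.39 to 0.13) and -0.08 with both (-0.34 to 0.18).

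Znrf3 (chromosome 11, 5276324 to 5444847, minus strand) had 8.53, 11.6 and 10.4 CPM in unstimulated libraries and 10.1, 10.5 and 12.1 with IL-1b. It had 7.83, 7.74 and 7.90 CPM with IL-22 and 5.44, 5.28 and 6.85 with both. All 6 libraries with IL-22 lay below all 6 without it, and the doubly treated libraries were the lowest. The group means were 10.2 ± 1.55 CPM (SD, n = 3) without cytokine, 10.9 ± 1.07 with IL-1b, 7.82 ± 0.0844 with IL-22 and 5.85 ± 0.863 with both. Znrf3 fell with both cytokines, to 57.5% of its unstimulated level (log2 fold change -0.80 ± 0.18 (SE), edgeR quasi-likelihood test, adjusted p = 0.00473). It also fell with both against IL-1b alone (-0.90 ± 0.18, edgeR adjusted p = 0.00218), but with IL-22 alone the change of -0.38 ± 0.17 did not pass (edgeR adjusted p = 0.136). Whether Znrf3 and Rnf43 responded differently was not tested.

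Axin2 encodes a scaffold of the complex that marks beta-catenin for destruction, and it is widely used as a readout of Wnt signalling (chromosome 11, 108920349 to 108950783, plus strand). Unstimulated libraries had 15.8, 13.4 and 24.4 CPM and IL-22 libraries 24.1, 21.4 and 19.0. IL-1b libraries had 14.6, 15.6 and 13.9 CPM, and libraries with both had 10.1, 8.60 and 11.1. The doubly treated libraries lay below all 9 others, while the unstimulated libraries overlapped with both single treatments and unstimulated replicate 3 stood high. With both cytokines Axin2 fell to 55.6% of unstimulated (log2 fold change -0.85 ± 0.21, edgeR adjusted p = 0.00749). Without unstimulated replicate 3 the fall was -0.56 on the log2 scale (edgeR adjusted p = 0.0279).

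Neither cytokine alone changed Axin2 by the test: the log2 fold change was 0.27 ± 0.19 with IL-22 (95% interval -0.14 to 0.67, edgeR adjusted p = 0.340) and -0.28 ± 0.19 with IL-1b (-0.69 to 0.14, edgeR adjusted p = 0.640). Without unstimulated replicate 3 the IL-22 value was 0.55 and passed (edgeR adjusted p = 0.0252). Doubly treated libraries had 46.2% of the Axin2 level of IL-22 libraries without overlap (-1.11 ± 0.21, edgeR adjusted p = 0.0668), which missed the threshold in edgeR and passed it in DESeq2 (-1.12, adjusted p = 0.00268). Against IL-1b alone the change was -0.57 ± 0.21 (edgeR adjusted p = 0.0595). Averaged over cultures without and with IL-22, IL-1b changed Axin2 by -0.70 ± 0.14 on the log2 scale (edgeR adjusted p = 0.0401). This call held in 6 of 19 alternative settings and was lost without any single library other than unstimulated replicate 2 or 3 (edgeR adjusted p from 0.0502 to 0.115). The interaction, the amount by which the effect of IL-1b differs with IL-22 present, was -0.84 ± 0.28 for Axin2 and did not pass (edgeR adjusted p = 0.924). Of the 5506 exon bases of Axin2, 209 are shared with Gm11670 on the opposite strand, and the counting strand is not given, so reads of the pair cannot be separated there.

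Sox9 encodes a transcription factor of crypt-base and secretory progenitor cells (chromosome 11, 112782224 to 112787760, plus strand). It had 40.0, 30.1 and 40.7 CPM in unstimulated libraries, 35, 40.3 and 29.2 with IL-1b, 25.1, 18.6 and 26.3 with IL-22 and 21.9, 17.4 and 19.7 with both. All 6 libraries with IL-22 were lower than all 6 without it, and IL-1b libraries overlapped with unstimulated ones. Sox9 fell to 63.5% of unstimulated with IL-22 (log2 fold change -0.65 ± 0.16, edgeR adjusted p = 0.00991) and to 53.3% with both (-0.91 ± 0.17, edgeR adjusted p = 0.00112). With both against IL-1b alone the fall was to 56.6% (-0.82 ± 0.17, edgeR adjusted p = 0.00246). With IL-1b alone the change of -0.09 had a 95% interval of -0.41 to 0.24. Without IL-22 replicate 2 the IL-22 change was -0.52 and did not pass (edgeR adjusted p = 0.0509), and likewise without both unstimulated replicate 1 and IL-1b replicate 1 (-0.59, edgeR adjusted p = 0.0557).

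Ascl2 encodes a transcription factor that, with beta-catenin, sets stem cell identity (chromosome 7, 142966829 to 142969264, minus strand). It was rare, with 1.95, 1.45 and 2.46 CPM in unstimulated libraries, 1.24, 0.442 and 0.565 with IL-22, 1.28, 2.44 and 1.99 with IL-1b and 1.01, 1.76 and 1.71 with both. The IL-22 libraries lay below all unstimulated ones, on 11 summed counts against 32. The log2 fold change was -1.35 ± 0.48 (edgeR adjusted p = 0.0443), and this call held in only 5 of 19 alternative settings, with adjusted p-values up to 0.158 (DESeq2). Leaving out any of 3 unstimulated, 2 IL-22, 2 IL-1b or 2 doubly treated libraries ended it, at adjusted p-values from 0.0519 to 0.154 in edgeR. With both cytokines Ascl2 changed by -0.38 ± 0.40 (edgeR adjusted p = 0.501), within the spread of the libraries.

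Ephb2 and Ephb3 encode receptors for B-type ephrins whose levels fall from the crypt base upwards and hold progenitor and Paneth cells in place. Ephb2 (chromosome 4, 136647539 to 136835988, minus strand) had 142, 117 and 120 CPM in unstimulated libraries, 118, 122 and 122 with IL-1b, 174, 161 and 163 with IL-22 and 176, 190 and 202 with both. Every library with IL-22 was above every library without it, and the doubly treated libraries were above the IL-22 ones. Ephb2 rose 1.32-fold with IL-22 (log2 fold change 0.40 ± 0.07, edgeR adjusted p = 0.00173), 1.5-fold with both (0.59 ± 0.07, edgeR adjusted p = 6.2e-05) and 1.57-fold with both against IL-1b alone (0.65 ± 0.07, edgeR adjusted p = 3.07e-05). With IL-1b alone the change was -0.06 (95% interval -0.22 to 0.10). Between both cytokines and IL-22 alone the log2 difference was 0.19 ± 0.07 and did not pass (edgeR adjusted p = 0.398), although the groups did not overlap.

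Ephb3 (chromosome 16, 21204755 to 21223305, plus strand) had 47.3, 28.8 and 48.6 CPM in unstimulated libraries, 33.3, 33.6 and 33.7 with IL-1b, 71.5, 106 and 67.0 with IL-22 and 49.9, 56.5 and 61.8 with both. It was highest with IL-22 alone, and all 6 libraries with IL-22 lay above the 6 without it, by a narrow margin between unstimulated replicate 3 and the lowest doubly treated library. Ephb3 rose 1.95-fold with IL-22 (log2 fold change 0.97 ± 0.18, edgeR adjusted p = 0.00198) and 1.67-fold with both against IL-1b alone (0.74 ± 0.19, edgeR adjusted p = 0.0119). With both against unstimulated the value was 0.43 ± 0.19 (edgeR adjusted p = 0.106). The doubly treated libraries were below the IL-22 ones without overlap (-0.54 ± 0.18), which did not pass (edgeR adjusted p = 0.313).

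Smoc2 encodes a secreted matrix protein of the stem cell signature (chromosome 17, 14279506 to 14404790, plus strand). It had 13.1, 10.2 and 10.4 CPM in unstimulated libraries, 13.8, 4.42 and 3.39 with IL-22, 2.93, 8.07 and 3.81 with IL-1b and 2.62, 2.93 and 3.85 with both. The unstimulated libraries were above every IL-1b and every doubly treated library, and IL-22 replicate 1 stood apart from the other IL-22 libraries at the unstimulated level. Smoc2 fell to 27.9% of unstimulated with both cytokines (log2 fold change -1.84 ± 0.49, edgeR adjusted p = 0.0105). With IL-1b alone it was -1.19 ± 0.44 and did not pass (edgeR adjusted p = 0.439). With IL-22 alone it was -0.65 ± 0.42 (edgeR adjusted p = 0.30), and without IL-22 replicate 1 it was -1.53 and passed (edgeR adjusted p = 0.0101).

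Olfm4 encodes a secreted glycoprotein that marks stem cells in the small intestine and is known to be scarce in mouse colon (chromosome 14, 79984081 to 80023139, plus strand, with 153 exon bases shared with Gm6999 on the same strand). It had 1, 0 and 0 counts in unstimulated libraries, 1, 0 and 0 with IL-22, 3, 2 and 6 with IL-1b and 4, 1 and 2 with both. Summed counts per scaled total were 10.7 times as high with IL-1b as without cytokine (exact 95% interval 1.56 to 462, counting error only) and 7.79 times as high with both (1.00 to 351). When genes of low count were also tested, the log2 fold change of IL-1b averaged over cultures without and with IL-22 was 2.72, which did not pass (edgeR adjusted p = 0.0866 over 24371 genes).

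**Figure D3:**
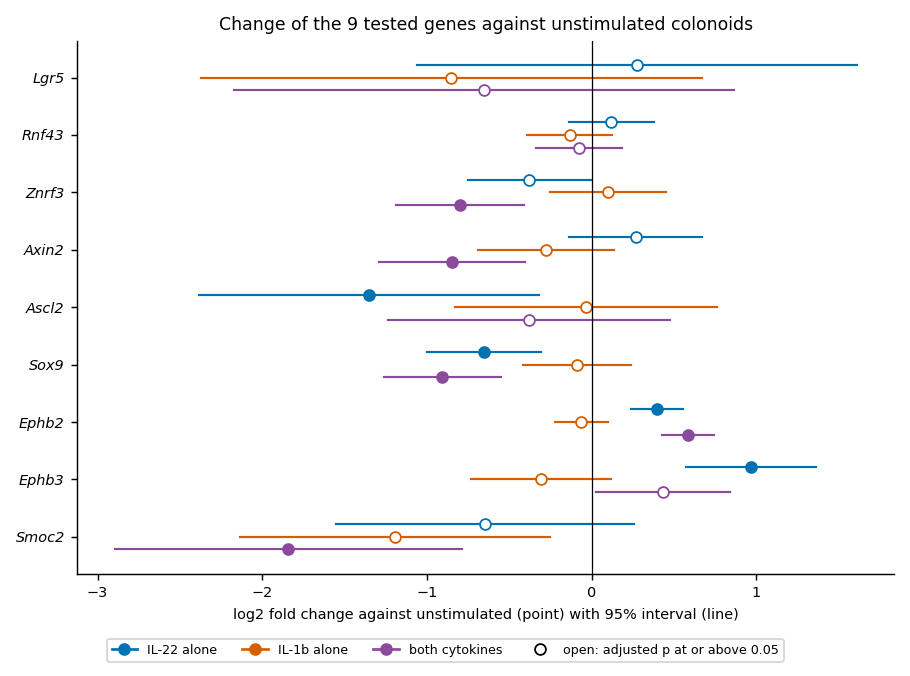
Log2 fold change against unstimulated colonoids (horizontal axis) of the 9 tested genes with IL-22 alone, IL-1b alone and both cytokines. Points are estimates, lines 95% intervals, and filled points have an edgeR adjusted p under 0.05. The filled points are Ascl2, Sox9, Ephb2 and Ephb3 with IL-22, and Axin2, Sox9, Ephb2, Smoc2 and Znrf3 with both.

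The gene counts stand against all tested genes as follows, where a gene was called when its p, adjusted by the Benjamini-Hochberg method over the 13987 genes tested, was under 0.05. With IL-22 alone 4 of the 9 tested genes were called, 2 higher and 2 lower, where 22.5% of all tested genes were called (11.9% higher and 10.6% lower). The median log2 fold change of the 9 genes was 0.12. With both cytokines 5 were called, 1 higher and 4 lower, where 27% of all genes were called (13.7% higher and 13.3% lower), and the median of the 9 was -0.65. The median over all genes tested was within 0.0076 of 0 on the log2 scale in each comparison against unstimulated.

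With IL-1b alone 0 of the 9 were called by edgeR, where 0.0715% of all genes were called, and 1 of the 9 (Smoc2) had an unadjusted p under 0.05, as did 9.57% of all genes. DESeq2 also called 0 of the 9, and 32 genes in all. Between both cytokines and IL-22 alone edgeR called 0 of the 9 (all genes 0.0786%, with 0.0643% higher and 0.0143% lower). DESeq2 called 1 of the 9 there and 87 genes in all. In edgeR 5 of the 9 had an unadjusted p under 0.05 in that comparison, where 10.3% of all genes did. Between both cytokines and IL-1b alone 4 were called (all genes 26.3%, 13.3% higher and 13% lower): Sox9 and Znrf3 lower, Ephb2 and Ephb3 higher. Averaged over cultures without and with IL-1b, IL-22 changed 5 (all genes 39.8%, 19.9% higher and 19.9% lower), 2 of them higher and 3 lower, and the averaged IL-1b effect called 1, Axin2, lower (all genes 0.593%, 0.357% higher and 0.236% lower). No interaction was called, for the 9 genes or any other (all genes 0%), by edgeR, and 2 of the 9, Axin2 and Ephb2, had an unadjusted p under 0.05, where 5.04% of all genes did. DESeq2 called 0 of the 9 and 4 genes in all.

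The effect of IL-22 was measured in separate libraries without and with IL-1b. Across these comparisons, which share no library, 8 of the 9 genes had the same sign, Axin2 being the exception, and all tested genes had the same sign in 78.6%. The signs of Lgr5 and Rnf43 turned when single libraries were left out. Sox9, Ephb2 and Ephb3 were called in both, and over all genes 16.3% were. Averaged over these strata, Sox9 changed by -0.74 ± 0.12, Ephb2 by 0.52 ± 0.05, Ephb3 by 0.85 ± 0.13 and Znrf3 by -0.64 ± 0.13 on the log2 scale (edgeR adjusted p = 0.000184, 3.6e-06, 0.000183 and 0.00100 in that order). These 4 averaged calls held in all 19 alternative settings. Ascl2, at -0.85 ± 0.31 (edgeR adjusted p = 0.0361), was the fifth, and its call held in 8 of 19.

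**Figure D4:**
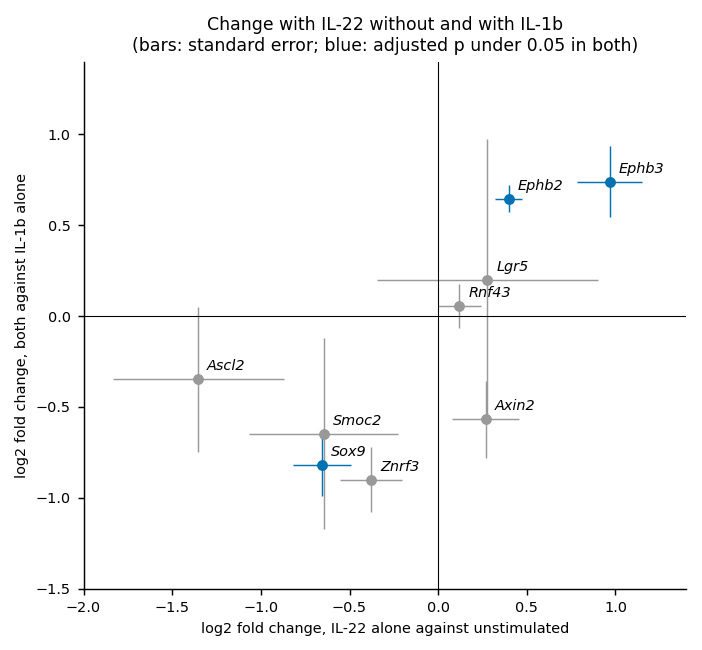
Log2 fold change with IL-22 in cultures without IL-1b (horizontal axis) against that in cultures with IL-1b (vertical axis) for the 9 tested genes. Bars are standard errors, and blue points, called in both, are Sox9, Ephb2 and Ephb3. Axin2 is the gene with opposite signs, 0.27 and -0.57.

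Genes with few counts per exon base tended to be lower in cultures with IL-22. The 3197 tested genes under 0.02 counts per exon base had a median log2 fold change of -0.18 with IL-22 and -0.19 with both cytokines, against -0.01 with IL-1b. Axin2, Znrf3, Smoc2, Ascl2 and Lgr5 belong to that class, and Sox9, Ephb2, Ephb3 and Rnf43 to the next one. With this trend removed, the falls with both cytokines were -0.70 for Axin2 (edgeR adjusted p = 0.0271), -0.56 for Znrf3 (edgeR adjusted p = 0.0346) and -1.59 for Smoc2 (edgeR adjusted p = 0.0253). The fall of Ascl2 with IL-22 was then -1.16 and did not pass (edgeR adjusted p = 0.0857).

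The genes closest in pattern, by Pearson's r of log2 CPM over the 12 libraries among 10797 genes of 10 CPM or more, were Lpgat1 for Ephb2 (r = 0.99), Trib1 for Ephb3 (0.97), Shprh for Sox9 (0.95) and Bbof1 for Znrf3 (0.97). The 12 points share the division into libraries with and without IL-22 and no p is given for them.

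Other genes of the pathway and of the crypt are read against the shares of all tested genes, of which 11.9% rose and 10.6% fell with IL-22 (22.5% in all), and 13.7% rose and 13.3% fell with both cytokines (27% in all). These shares are over genes of every level. The trend of genes with few counts per exon base to be lower with IL-22 was not removed from the values of the lists. Of 18 genes for Wnt ligands, R-spondins and their secretion, 2 could be tested, and Porcn, which encodes the acyltransferase that makes Wnt proteins fit for secretion, fell from 8.95 to 5.53 CPM with IL-22 (log2 fold change -0.70 ± 0.19, edgeR adjusted p = 0.0165) and to 3.47 with both (-1.36 ± 0.21, edgeR adjusted p = 0.000226). Among 31 tested of 35 receptors and signal transducers, 2 rose and 1 fell with IL-22 (all genes 11.9% and 10.6%), and 2 rose and 3 fell with both (all genes 13.7% and 13.3%). The Wnt receptor gene Fzd1 rose from 70.3 to 145 CPM with IL-22 (1.05 ± 0.08) and to 123 with both (0.81 ± 0.08). Fzd5 fell by 0.32 with IL-22, and Fzd8 and the repressor Tcf7l1 fell by 0.82 and 0.64 with both. Ctnnb1, which encodes beta-catenin, rose by 0.18 with IL-22, with libraries that overlapped with the unstimulated ones (edgeR adjusted p = 0.0424). Fzd3 rose from 1.97 to 5.41 CPM with both (1.43 ± 0.46).

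Of the 5 tested of 18 Wnt inhibitors, the co-repressor Tle3 rose with IL-22 (0.45 ± 0.15) and with both (0.44 ± 0.15). In both comparisons the Tle3 levels overlapped with the unstimulated ones (edgeR adjusted p = 0.0381 and 0.0383). Among 7 tested of 15 further Wnt target genes, 1 rose with IL-22, Bambi, a pseudoreceptor that damps TGF-beta signals (from 10.9 to 21.7 CPM), where 11.9% of all genes rose. With both cytokines the cyclin gene Ccnd1 rose by 0.60 ± 0.13 and Ccnd2 fell by 0.28 on the log2 scale. The median log2 fold change of the 7 was -0.01 with IL-22 and 0.23 with both.

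Among 12 tested of 15 ephrins and other Eph receptors, 1 rose and 3 fell with IL-22 (22.5% of all genes called), and 1 rose and 2 fell with both (27% called), which is near the share over all genes. Ephb6, a receptor without kinase activity, fell from 14.7 to 2.47 CPM with IL-22 (-2.54 ± 0.49, edgeR adjusted p = 0.00129) and to 2.44 with both (-2.58 ± 0.49). Ephb4 fell from 90.3 to 63.1 and 52.5 CPM, and Efna4, an ephrin ligand, fell from 10.1 to 5.52 with IL-22. Epha4 rose from 21.3 to 40.1 CPM with IL-22 (0.91 ± 0.14) and to 49.6 with both (1.22 ± 0.14). The rise of Ephb2 and Ephb3 was therefore not shared by all Eph receptor genes.

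Of 16 tested of 20 other stem cell genes, 3 rose and 1 fell with IL-22, near the 22.5% called over all genes, and 3 rose and 4 fell with both, where 27% of all genes were called. Tert, the catalytic subunit of telomerase, fell from 5.66 to 2.34 CPM with IL-22 (-1.25 ± 0.29) and to 1.42 with both (-1.98 ± 0.33, edgeR adjusted p = 0.000376). Myb, a transcription factor of progenitor cells, fell from 63.9 to 38.5 CPM with both (-0.73 ± 0.10), and Soat1 fell from 86.5 to 64.0. Aqp4, a water channel, rose from 300 to 437 CPM with IL-22 and 453 with both, and Prom1 and the chromatin factor Bmi1 rose by 0.27 and 0.24 on the log2 scale with IL-22.

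Notch signals from neighbouring cells keep crypt progenitors from secretory fates. Of 13 tested of 16 Notch pathway genes, 1 rose and 4 fell with IL-22, where 11.9% and 10.6% of all genes did, and 2 rose and 6 fell with both, where 13.7% and 13.3% did. The receptor gene Notch1 fell by 0.79 and the ligand gene Jag1 by 0.62 on the log2 scale with IL-22, and Atoh1, the factor that starts secretory differentiation, fell by 0.70. Adam10, a protease that cleaves Notch receptors, rose by 0.53 with IL-22. With both cytokines Lfng fell by 1.59 (from 9.04 to 3.02 CPM) and Dll1 by 1.33 (from 10.4 to 4.08), and Notch3 rose from 0.968 to 2.87 CPM.

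Genes of regenerating epithelium, a state described after injury in which stem cell genes are low, made up a further list. Of its 12 genes 11 were tested, and 4 rose and 0 fell with IL-22 (all genes 11.9% and 10.6%), and 6 rose and 0 fell with both (all genes 13.7% and 13.3%). Called or not, 6 of the 11 log2 fold changes were above 0 and 5 below with IL-22, and 10 above and 1 below with both. The genes named here are among those called. The growth factor gene Ereg rose from 20.4 to 42.1 CPM with IL-22 (1.04 ± 0.25, edgeR adjusted p = 0.00853) and to 55.2 with both (1.44 ± 0.25), and Areg from 91.4 to 126 and 123. Ly6a, a surface protein of regenerating crypts, rose from 117 to 158 and 160 CPM, and Il33 from 4.38 to 22.4 CPM with both (2.35 ± 0.66, edgeR adjusted p = 0.0141). Anxa1 rose by 0.33 on the log2 scale with IL-22.

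Of 20 proliferation genes, 3 rose with IL-22, near the 11.9% of all genes (Ccnb1 by 0.59, Top2a by 0.41 and Pcna by 0.28 on the log2 scale), and with both cytokines Pcna rose by 0.24 while Ccne1 and Plk1 fell by 0.62 and 0.36. Top2a levels with IL-22 overlapped with the unstimulated ones (edgeR adjusted p = 0.0385). Mki67 had a log2 fold change of 0.30 with IL-22 and -0.01 with both and was called in neither. In the averaged IL-22 effect 9 of the 20 were called higher and 1 lower, where 19.9% of all genes were called in each direction, and Mki67 was among the 9 (0.28, edgeR adjusted p = 0.0441). As a reference for the cytokine response, the STAT3 feedback gene Socs3 rose from 13.4 to 209 CPM with IL-22 and 214 with both. A second reference gene for the cytokine response, Lcn2, was near 0 without cytokine (0.126 CPM). It rose to 4.18 CPM with IL-1b (edgeR adjusted p = 0.00379), 1.09 with IL-22 and 41.0 with both. With IL-1b alone 0 genes were called by edgeR in any of these 9 further lists, where 0.0715% of all genes were called. Of the genes named from the lists, Prom1, Myb, Fzd5, Ctnnb1, Tcf7l1, Ccnd1, Ccnd2, Efna4, Ephb4, Notch1, Notch3, Dll1, Ereg, Plk1 and Top2a share exon bases with another gene model, and their counts are uncertain to that extent.

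**Figure D5:**
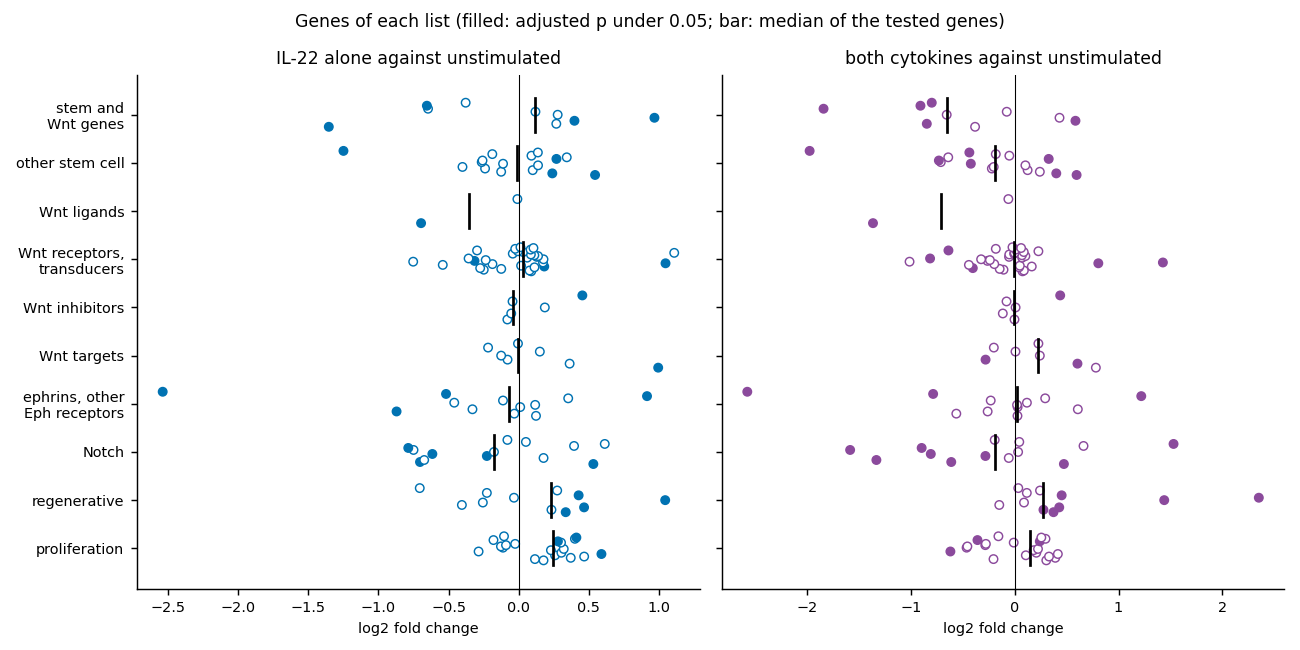
Log2 fold change (horizontal axis) of each tested gene of the 10 lists with IL-22 alone (left) and with both cytokines (right) against unstimulated. Filled points have an edgeR adjusted p under 0.05, and black bars are medians of the tested genes. Regenerative genes have filled points only to the right of 0 and open points on either side. Notch pathway genes have 4 of 5 filled points to the left with IL-22 and 6 of 8 with both.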

How the data were processed

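Polyadenylated RNA libraries were made with a strand-preserving kit, per the labels' protocols. The authors deposited whole-number read counts per gene symbol, without normalization. The genome build was mm10, per the submitters' processing notes. How reads were aligned and counted, on which strand and against which annotation is not given in the sources used here. Of 35869 symbols, 11498 had no count. The analysis used R 4.3.3 and edgeR 4.0.16. Its function filterByExpr kept 13987 genes and removed 21882, and totals were scaled by TMM, with factors of 0.957 to 1.04. The quasi-likelihood test of edgeR used all 12 libraries in 1 model with a mean for each group, which leaves 8 residual degrees of freedom. The p-values were adjusted across the 13987 genes. CPM values use the scaled totals. Library totals of 4703902 to 5804033 counts limit the precision for rare genes.

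Replicate pairs differed by more than sampling noise (chi-square of 1.72 to 3.95 per degree of freedom), and each library was counted as 1 sample. Unstimulated replicate 3, IL-22 replicate 1, IL-1b replicate 1 and doubly treated replicate 3 correlated positively in every pair (r of 0.281 to 0.547). So did unstimulated replicate 1, IL-22 replicate 3, IL-1b replicate 2 and doubly treated replicate 2 (0.211 to 0.472). Between these sets, picked after seeing the values, r was -0.532 to -0.138, and signs among the other libraries were mixed. No fit included these links, and their source was not tested. Positions and exon lengths are from GENCODE M21 on mm10 (26762 symbols placed by name, 547 by synonym, 8560 unmatched). The genes and lists were chosen with earlier results of these data known. From each further list, up to 4 called genes with the largest change were named for IL-22 alone and for both cytokines against unstimulated. Of the genes most alike in pattern, the closest is given for the genes called in the averaged IL-22 effect over all settings. Alternatives were total-count scaling, DESeq2 1.42.0, no filter beyond 1 count, 1 CPM in 6 libraries, a replicate block, only the 6 libraries compared, removal of a lowess trend (R, span 0.3) on count per exon base, and leaving out libraries.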

Additional observations from a re-analysis of the deposited data

How the results depend on the processing

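Of 1404 values of single genes, 1306 kept their direction and side of the threshold, 40 lost a call, 18 gained one and 40 had the opposite sign. None of the latter 40 was called in either fit, and they belong to 17 of the 72 results. The calls with both cytokines against unstimulated (5 genes) and against IL-1b alone (4 genes) held in all 20 alternatives each. With IL-22 alone 4 genes were called, and 2 to 5 without single libraries (all genes 1992 to 3350, lowest without unstimulated replicate 2). There were 2 without IL-22 replicate 2 (2138) and 2 without both unstimulated replicate 1 and IL-1b replicate 1 (2194). With no filter beyond 1 count, 1 gene was called for IL-1b alone (Smoc2, adjusted p = 0.0232, all genes 212 of 24371). This fit called 2 between both and IL-22 alone (336) and 3 for the averaged IL-1b effect (495). With both against unstimulated it added Ephb3 (adjusted p = 0.00834, all genes 4078). DESeq2 called 1 between both and IL-22 alone (all genes 87). The averaged IL-1b call of Axin2 (1 gene) went to 0 with the trend removed (adjusted p = 0.0544, all genes 74) and without both those replicate 1 libraries (all genes 22). Leaving out single libraries gave 0 to 0 genes for IL-1b alone (all genes 9 to 28) and for the interaction (0 to 1). Both cytokines gave 5 to 5 against unstimulated (2648 to 4055) and 0 to 1 against IL-22 alone (3 to 72). Against IL-1b alone they gave 4 to 5 (2567 to 3843). The averaged effect gave 4 to 6 for IL-22 (4764 to 5759) and 0 to 1 for IL-1b (23 to 127). The cause of these changes was not tested.

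Over left-out libraries, log2 values that changed sign had these ranges. For IL-22 alone they went from -0.14 to 1.31 for Lgr5 and from -0.052 to 0.22 for Rnf43. For IL-1b alone they went from -1.22 to 0.40 for Lgr5, -0.23 to 0.18 for Ascl2, -0.44 to 0.012 for Axin2, -0.21 to 0.031 for Sox9, -0.11 to 0.052 for Ephb2 and -0.0060 to 0.21 for Znrf3. Lgr5 went from -1.80 to 0.38 with both cytokines, -0.96 to 0.60 between both and IL-1b alone and -0.34 to 0.75 for the averaged IL-22 effect. Rnf43 went from -0.0031 to 0.14 between both and IL-1b alone and -0.00023 to 0.14 for the averaged IL-22 effect. Interactions went from -1.33 to 0.33 for Lgr5, -0.36 to 0.0042 for Ephb3, -0.39 to 0.88 for Smoc2 and -0.17 to 0.10 for Rnf43. Rnf43 between both and IL-1b alone was at -0.0021 with total-count scaling. With the trend removed the interaction was 0.011 for Lgr5 and 0.048 for Smoc2, and with a replicate block it was 0.043 for Smoc2.

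Same-numbered libraries of different groups correlated between -0.495 and 0.398 over 5000 genes. Of 12 libraries 1 correlated best with its own number, so equal numbers were not paired. With a replicate block 3 genes were called with IL-22 (Ascl2 lost), 5 with both cytokines, 4 between both and IL-1b alone, 4 for the averaged IL-22 effect, and 0 for the averaged IL-1b effect (Axin2, adjusted p = 0.0714), for IL-1b alone, between both and IL-22 alone and for the interaction. Over all genes, calls for IL-1b alone went from 10 to 32 with DESeq2 and 28 without unstimulated replicate 3. Calls between both and IL-22 alone went from 11 to 87 with DESeq2, 6 with only the 6 libraries and 72 without IL-22 replicate 1. They went to 5 with the trend removed or without both unstimulated replicate 1 and IL-1b replicate 1. For the averaged IL-1b effect, 83 became 130 with DESeq2, 22 without both those libraries and 23 without IL-22 replicate 2. The interaction had 4 with DESeq2, 50 with no filter and 1 without IL-1b replicate 1. With total-count scaling, 1206 of 3197 calls with IL-22 were higher in place of 1661 of 3144, 1495 of 3757 with both cytokines in place of 1920 of 3783, 1391 of 3778 in place of 1860 of 3682 against IL-1b alone, and 1954 of 5557 in place of 2790 of 5571 for the averaged IL-22 effect. It moved the median of all genes by at most 0.058 on the log2 scale. Depth limits Lgr5, Ascl2 and Olfm4 most (at most 28 counts a library).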
